A study of Mus musculus with 6 samples.

Results

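The proteasome genes were taken as every gene whose symbol starts with Psm, a letter from a to g and a digit, each read from the single-symbol probe set that was brightest over the 6 arrays. This gave 50 of the 19937 genes measured: 14 constitutive subunits of the core particle, 17 subunits of the regulatory particle, 3 immunoproteasome subunits, 2 tissue-restricted core subunits, 7 assembly chaperones, 5 activators or inhibitors, and 2 genes that matched by symbol only. The question was whether these genes differed between islets with induced Sox17 and control islets, and whether the core and the regulatory particle differed from each other.

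Whole-islet RNA was hybridized to Affymetrix Mouse Gene 1.0 ST arrays, 1 per sample, from 3 Sox17-GOF samples (Ins2-rtTA;tetO-Sox17) and 3 control samples (Ins2-rtTA by the labels). All mice were 16 weeks old, male by the methods, backcrossed to C57BL/6 for at least 3 generations, and received doxycycline in food and water for 24 hours, so doxycycline was shared by both groups and, if the labels hold, the Ins2-rtTA driver too. The study's legend for its own 24-hour protein experiment gives tetO-Sox17 controls instead, and which genotype the control arrays had was not settled further. The insulin promoter of the driver directs the Sox17 transgene to β cells, whereas the islets, isolated by collagenase and Ficoll, also hold other cells, so a lower signal from fewer cells of a type and from less RNA per cell cannot be told apart. Values are log2 signals after RMA normalization, on which a difference of 1 is a doubling, and levels of different genes cannot be set against each other because each probe set has its own scale.

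The proteasome degrades proteins tagged with ubiquitin. Its barrel-shaped core particle is built of alpha rings, which form the gate (Psma genes), and beta rings, which hold the proteolytic sites (Psmb genes), and its regulatory particle is built of a ring of ATPases that unfold the substrate (Psmc genes) and of non-ATPase subunits that recognize and deubiquitinate it (Psmd genes). Under interferon, cells replace the catalytic subunits Psmb5, Psmb6 and Psmb7 with the immunoproteasome subunits Psmb8, Psmb9 and Psmb10. In β cells, which fold large amounts of proinsulin, the proteasome also removes misfolded proteins exported from the endoplasmic reticulum.

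Sox17 was measured first, as a check of the labels. Its log2 signal was 6.35, 6.22 and 6.36 in Sox17-GOF islets, against 5.50, 5.72 and 5.71 in control islets. The Sox17-GOF samples were all above the control samples, by 0.67 ± 0.092 on the log2 scale (SE, n = 3 each), which is 1.59-fold, with a limma adjusted p of 0.0088. An exact two-sided permutation test gave p = 0.10, the smallest that 3 against 3 samples allow. Beta cell markers were present on all arrays, and 2 of 6 fell in Sox17-GOF islets (Slc2a2, the glucose transporter, and Ucn3, a maturity marker), as did 2.44% of all genes. By the methods' per-gene test both missed the threshold (adjusted p = 0.11 and 0.091). On the second principal component, with 19.8% of the variance, Sox17-GOF replicate 3 (-26.3) stood apart from replicates 1 (17.4) and 2 (13.1). Several results that rest on it are therefore given with and without it, and others only with it.

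Sequence upstream of the catalytic pairs is shown first, because the values below set the constitutive subunits against their interferon-inducible replacements. Promoters of 250 bases before to 50 bases after the start were found in RefSeq (GRCm38.p6) for 42 of the 50 genes, as 46 entries. The lines below give, on the gene's strand, the 80 bases before the start of the catalytic subunits that had an entry, and 30 bases around the start of Psme1, a subunit of an interferon-inducible activator. Capitals mark matches to TGACNNNGC (the core of the antioxidant response element, bound by Nfe2l1 and Nfe2l2), CCAAT (the NF-Y box) or the interferon-stimulated response element (GAAA, any 2 bases, GAAA), searched on both strands.
Psmb5, chr14:54617996-54618075, minus strand: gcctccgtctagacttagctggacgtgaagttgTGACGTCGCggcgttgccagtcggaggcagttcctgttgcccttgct
Psmb6, chr11:70525277-70525356, plus strand: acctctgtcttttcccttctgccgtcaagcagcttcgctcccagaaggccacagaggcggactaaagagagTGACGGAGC
Psmb8, chr17:34198115-34198194, plus strand: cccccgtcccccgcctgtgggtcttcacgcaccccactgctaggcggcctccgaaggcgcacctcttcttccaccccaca
Psmb9, chr17:34187331-34187410, minus strand: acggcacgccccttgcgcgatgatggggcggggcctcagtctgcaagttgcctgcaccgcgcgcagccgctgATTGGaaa
Psmb10, chr8:105938393-105938472, minus strand: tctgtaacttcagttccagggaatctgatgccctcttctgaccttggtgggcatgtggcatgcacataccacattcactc
Psme1, chr14:55578493-55578522, plus strand: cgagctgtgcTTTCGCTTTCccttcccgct

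The match in Psmb5 began 47 bases before the start and the one in Psmb6 began 9 bases before it, both to TGACNNNGC. None of the promoters of Psmb8, Psmb9 and Psmb10 held that motif or the interferon-stimulated element, and Psmb9 held CCAAT on the opposite strand, 8 bases before its start. The Psme1 match to the interferon-stimulated element lies on the opposite strand and begins 9 bases after its start. Over all entries, TGACNNNGC was found in 6 of 46 proteasome promoters (13.0%), against 12.4% of the 32851 promoters in the table, and CCAAT in 16 of 46 (34.8%), against 37.4%. The interferon-stimulated element was found in 5 of 46 (10.9%), against 3.44% of all. Besides Psme1, these were the core subunit Psmb3, the regulatory subunit Psmd4 and the assembly chaperones Psmd9 and Psmg4. ACAAT, the core that SOX proteins bind, was found in 7 of 46 proteasome promoters (15.2%), against 31.0% of all. ACAAT and CCAAT share their last 4 letters, so a site matches only one of them on a strand. These are matches of letters in a window, not measured binding.

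No proteasome gene passed the adjusted threshold of 0.05 between Sox17-GOF and control islets, in either direction, whereas 5.21% of all genes did. At an unadjusted p under 0.05, limma counted 3 of 50 proteasome genes (6%), all lower in Sox17-GOF islets, against 19.7% of all genes and 10.7% of all genes lower. By the methods' per-gene test, 0 of the 50 passed after adjustment and 6 at an unadjusted p under 0.05, which 16.8% of all genes passed by that test. Sox17-GOF and control samples did not overlap for 10 of 50 proteasome genes (20%), against 25.5% of all genes. In all 10 the Sox17-GOF samples were the lower ones, a pattern held by 14.2% of all genes, while 11.3% of all genes had all Sox17-GOF samples above all control samples and 0 proteasome genes did. The log2 fold changes of the 50 genes had a median of -0.017 and ran from -0.35 to 0.23, beside a median of -0.011 over all genes. The median size of the change was 0.076 in proteasome genes and 0.11 over all genes, and the median SE was 0.087 and 0.098.

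The 95% interval of the fold change, from the moderated error of limma and not adjusted for the number of genes, shows how much change these arrays leave room for. It lay wholly within 1.3-fold up or down (0.38 on the log2 scale) for 40 of the 50 genes (80%), against 57.2% of all genes. For the core particle this held for 14 of 14 subunits, for the regulatory particle for 15 of 17, and for the immunoproteasome for 0 of 3.

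**Figure D1:**
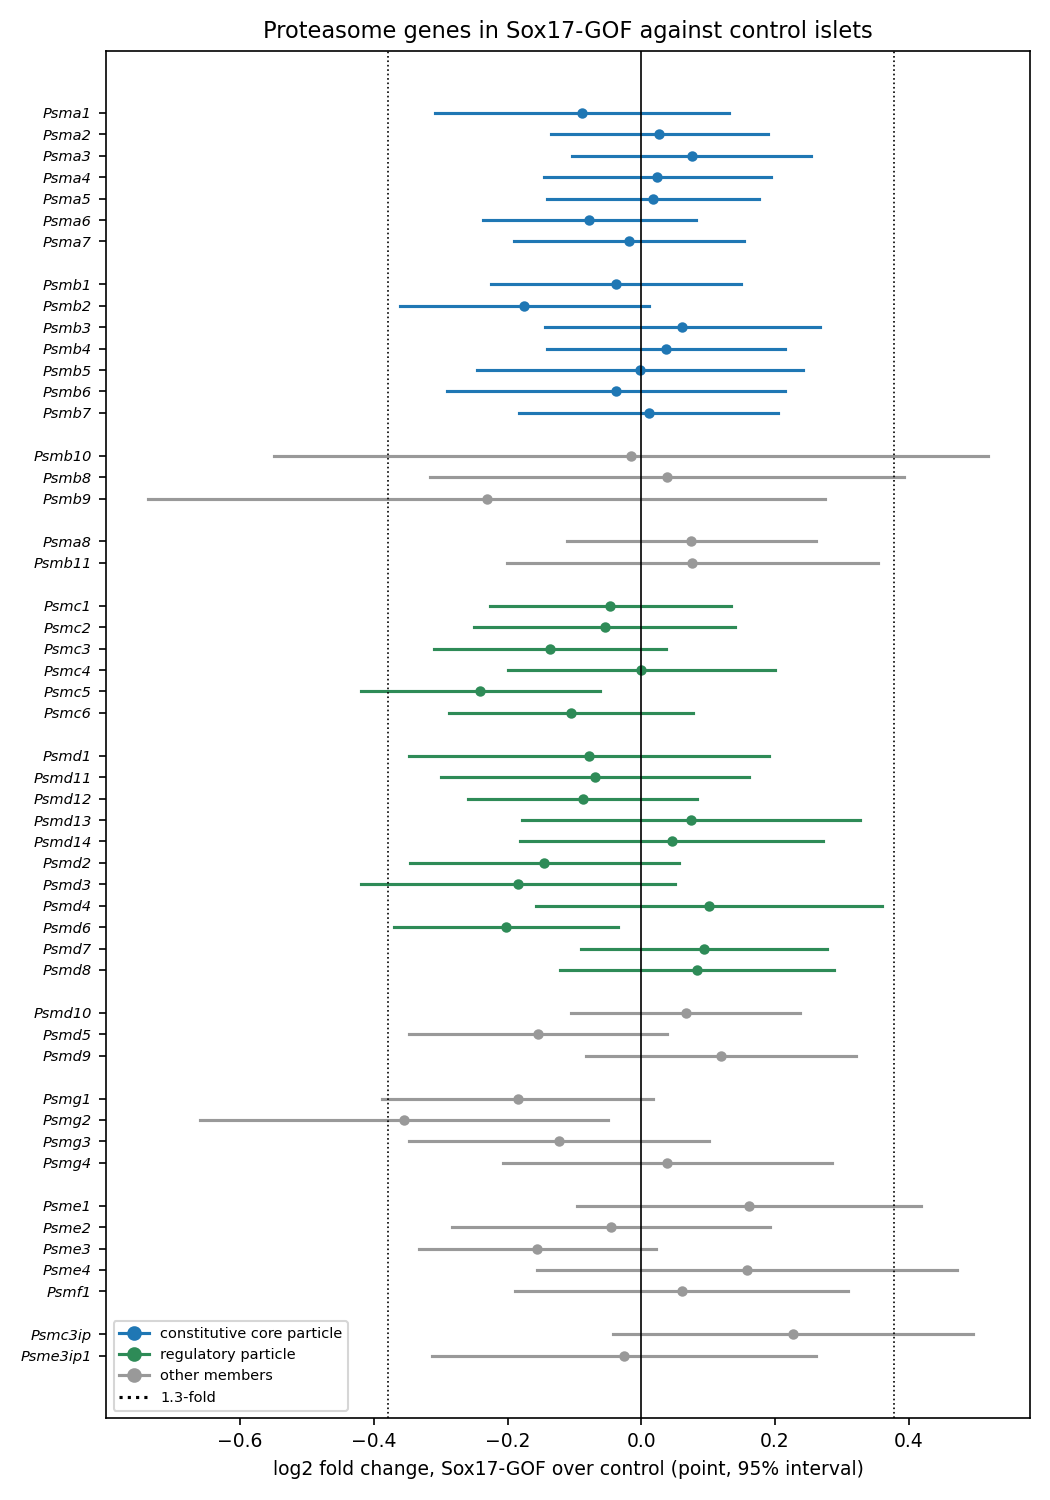
Log2 fold change of each of the 50 proteasome genes in Sox17-GOF over control islets (point) with its 95% interval (line), grouped by role, with dotted lines at 1.3-fold. All 14 core subunits keep their interval inside the dotted lines, Psmc5, Psmd6 and Psmg2 have intervals wholly below 0, and the 3 immunoproteasome subunits have the widest intervals of the subunits.

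Core particle subunits were spread evenly around 0. Of the 14, 7 had positive and 7 negative log2 fold changes, with a median of 0.0046 and a range of -0.17 to 0.075. In the alpha ring, Psma3 had the highest fold change, 0.075 ± 0.077 (SE, adjusted p = 0.67), and Psma1 the lowest, -0.088 ± 0.094 (adjusted p = 0.68). Psma1 was at 10.76, 10.78 and 10.51 in Sox17-GOF islets and at 10.83, 10.75 and 10.73 in control islets. Only Sox17-GOF replicate 3 lay below the control samples, and without it the fold change of Psma1 was -0.0033. Psma2, Psma4 and Psma5 had fold changes between 0.017 and 0.027, and Psma7, at 12.22, 12.22 and 12.13 in Sox17-GOF islets against 12.22, 12.15 and 12.25 in control islets, differed by -0.018. Psma6 was the alpha subunit whose groups did not overlap, with 11.73, 11.70 and 11.74 in Sox17-GOF islets against 11.78, 11.82 and 11.81 in control islets, a difference of -0.078 ± 0.068 (SE, adjusted p = 0.61).

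In the beta ring, Psmb2, a non-catalytic subunit, lay farthest from 0. Its log2 signal was 10.67, 10.63 and 10.51 in Sox17-GOF islets, against 10.71, 10.81 and 10.81 in control islets. All Sox17-GOF samples were below the control samples, with a difference of -0.17 ± 0.080 (SE, 95% interval -0.36 to 0.012, adjusted p = 0.29). Psmb3, a structural subunit, had the highest fold change of the ring, 0.062 ± 0.088 (adjusted p = 0.78), and Psmb1 and Psmb4 differed by -0.038 and 0.037. Among the catalytic subunits, Psmb5, which carries the chymotrypsin-like activity, was at 11.64, 11.41 and 11.33 in Sox17-GOF islets against 11.51, 11.34 and 11.53 in control islets. Psmb6, with the caspase-like activity, was at 11.79, 11.59 and 11.41 in Sox17-GOF islets and at 11.67, 11.55 and 11.69 in control islets. Psmb7, with the trypsin-like activity, was at 10.99, 10.84 and 10.78 in Sox17-GOF islets and at 10.80, 10.89 and 10.89 in control islets. In all 3 catalytic genes the Sox17-GOF samples spanned the control samples, with replicate 1 the highest and replicate 3 the lowest of the 6. Their log2 fold changes were -0.0018, -0.038 and 0.011, with SEs of 0.10, 0.11 and 0.083 and adjusted p-values of 1.00, 0.89 and 0.97.

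The 17 regulatory particle subunits with a Psm symbol lay slightly lower in Sox17-GOF islets, without a call. Their median was close to 0 without Sox17-GOF replicate 3 (-0.0080) and under quantile normalization (-0.0083). The symbol rule leaves out Sem1, a further subunit of this particle. Sem1 went the other way, by 0.28 (limma adjusted p = 0.087), with all Sox17-GOF samples above all control samples. Of the 17, 5 had positive and 12 negative log2 fold changes, with a median of -0.069 and a range of -0.24 to 0.10. All 6 ATPases had a fold change below 0, although that of Psmc4 was -1.5e-05, and their median was -0.080. The median of the 11 non-ATPase subunits was -0.069, with 5 positive and 6 negative values. Over all genes, 52.9% of fold changes were negative, against 70.6% in the regulatory particle and 50% in the core.

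Psmc5 had the lowest p of all 50 genes. This ATPase of the base measured 11.66, 11.53 and 11.58 in Sox17-GOF islets, against 11.89, 11.76 and 11.84 in control islets. Every Sox17-GOF sample lay below every control sample, with a difference of -0.24 ± 0.077 (SE, n = 3 each, 95% interval -0.42 to -0.061), but the adjusted p was 0.14. Psmd6, a scaffold subunit of the lid, came second, with 11.50, 11.58 and 11.47 in Sox17-GOF islets, against 11.72, 11.74 and 11.69 in control islets. The groups again did not overlap, and the difference was -0.20 ± 0.072 (SE, 95% interval -0.37 to -0.035, adjusted p = 0.18). Without control replicate 1 the adjusted p of both was 0.34, and no proteasome gene then reached an unadjusted p under 0.05.

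The remaining regulatory subunits with non-overlapping groups were Psmc3 (an ATPase, -0.14, adjusted p = 0.39), Psmd2 (the scaffold that docks ubiquitin-like domains, -0.15, adjusted p = 0.43) and Psmd12 (a lid subunit, -0.088, adjusted p = 0.59). Psmd2 was at 10.31, 10.27 and 10.12 in Sox17-GOF islets against 10.47, 10.34 and 10.33 in control islets. Psmd3, another lid subunit, differed by -0.18 (adjusted p = 0.39) but its groups overlapped, with 7.63, 7.56 and 7.31 in Sox17-GOF islets against 7.72, 7.60 and 7.73 in control islets. Without Sox17-GOF replicate 3 it differed by -0.090. In the other direction, Psmd4, a ubiquitin receptor, had the highest fold change of the 17, 0.10 ± 0.11 (SE, adjusted p = 0.70). It was at 9.98, 9.67 and 9.68 in Sox17-GOF islets, against 9.81, 9.62 and 9.60 in control islets. Psmd14, the deubiquitinase that releases ubiquitin from the substrate, differed by 0.046 and Psmd7, its partner in the lid, by 0.094, both with overlapping groups.

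The median fold change of the core particle exceeded that of the regulatory particle, taken without Sem1, by 0.074 on the log2 scale. The mean over core subunits minus the mean over regulatory subunits, each as a deviation from the 6-array mean, was 0.018, 0.0058 and 0.041 in the Sox17-GOF samples and -0.056, -0.024 and 0.016 in the control samples. Control replicate 3 lay between the Sox17-GOF samples, so the groups overlapped in this difference. The gap between the medians was 0.035 without Sox17-GOF replicate 3 and 0.12 without control replicate 3. The subunits of a particle share their arrays and are not replicates, so this gap was given no test.

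**Figure D2:**
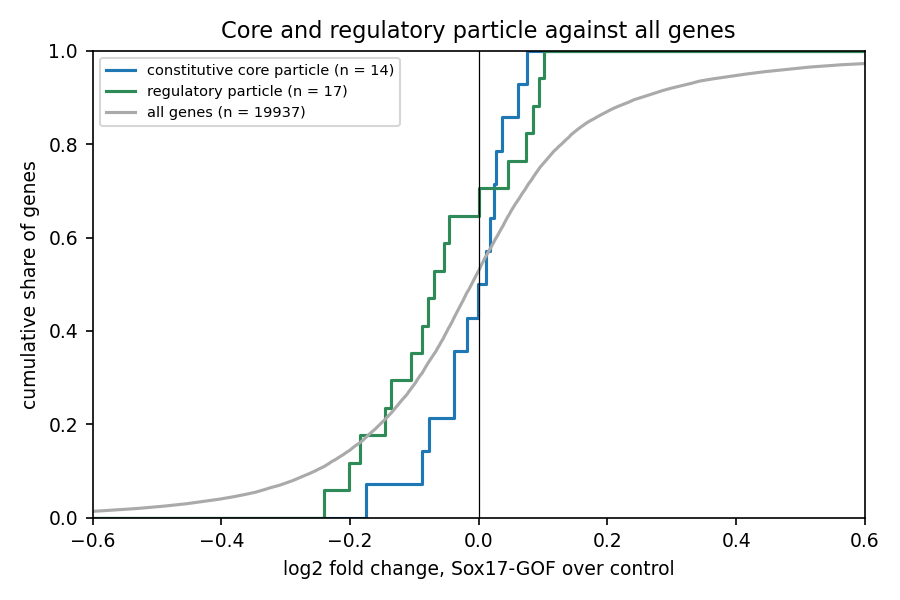
Cumulative share of genes (vertical axis) at or below each log2 fold change, Sox17-GOF over control (horizontal axis), for the 14 core subunits, the 17 regulatory subunits and all 19937 genes. The core curve crosses its middle near 0 and the regulatory curve at -0.069, and both end inside the range of -0.24 to 0.10 while the curve of all genes goes on beyond it.

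Constitutive subunits were more spread among the Sox17-GOF samples than among the control samples. The median SD over the 31 core and regulatory subunits was 0.10 in Sox17-GOF islets, against 0.059 in control islets, beside 0.12 and 0.098 over all genes. Sox17-GOF replicate 3 was the lowest of the 6 arrays for 18 of these 31 genes (58.1%), against 22.4% of all genes. Sox17-GOF replicate 1 was the highest for 13 of the 31, a larger share than its 18.4% of all genes. The mean deviation of the core subunits was 0.063, -0.0067 and -0.076 in the Sox17-GOF samples and 0.0085, -0.021 and 0.032 in the control samples. That of the regulatory subunits was 0.045, -0.013 and -0.12 in the Sox17-GOF samples and 0.065, 0.0029 and 0.016 in the control samples. Both particles thus had their lowest array in Sox17-GOF replicate 3, and replicate 1 was the highest Sox17-GOF sample for both.

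The immunoproteasome subunits ran the other way on that array. Psmb9, which replaces Psmb6, was at 9.21, 9.10 and 9.97 in Sox17-GOF islets and at 9.81, 9.64 and 9.52 in control islets. Psmb10, which replaces Psmb7, was at 7.96, 7.90 and 8.76 in Sox17-GOF islets and at 8.43, 8.21 and 8.02 in control islets. Psmb8, which replaces Psmb5, was at 8.38, 8.15 and 8.76 in Sox17-GOF islets and at 8.52, 8.33 and 8.32 in control islets. For all 3 genes Sox17-GOF replicate 3 was the highest of the 6 arrays, and for Psmb9 and Psmb10 the other Sox17-GOF samples were below all control samples. Over all 6 arrays the log2 fold changes were -0.23 ± 0.22, -0.015 ± 0.23 and 0.039 ± 0.15 (SE) for Psmb9, Psmb10 and Psmb8, with adjusted p-values of 0.64, 0.98 and 0.93. Without Sox17-GOF replicate 3 they were -0.50 (adjusted p = 0.054), -0.29 (adjusted p = 0.29) and -0.13 (adjusted p = 0.64), so that none passed the threshold either way and the value of Psmb8 changed sign. The median SD of the 3 genes was 0.47 in Sox17-GOF islets, against 0.14 in control islets.

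**Figure D3:**
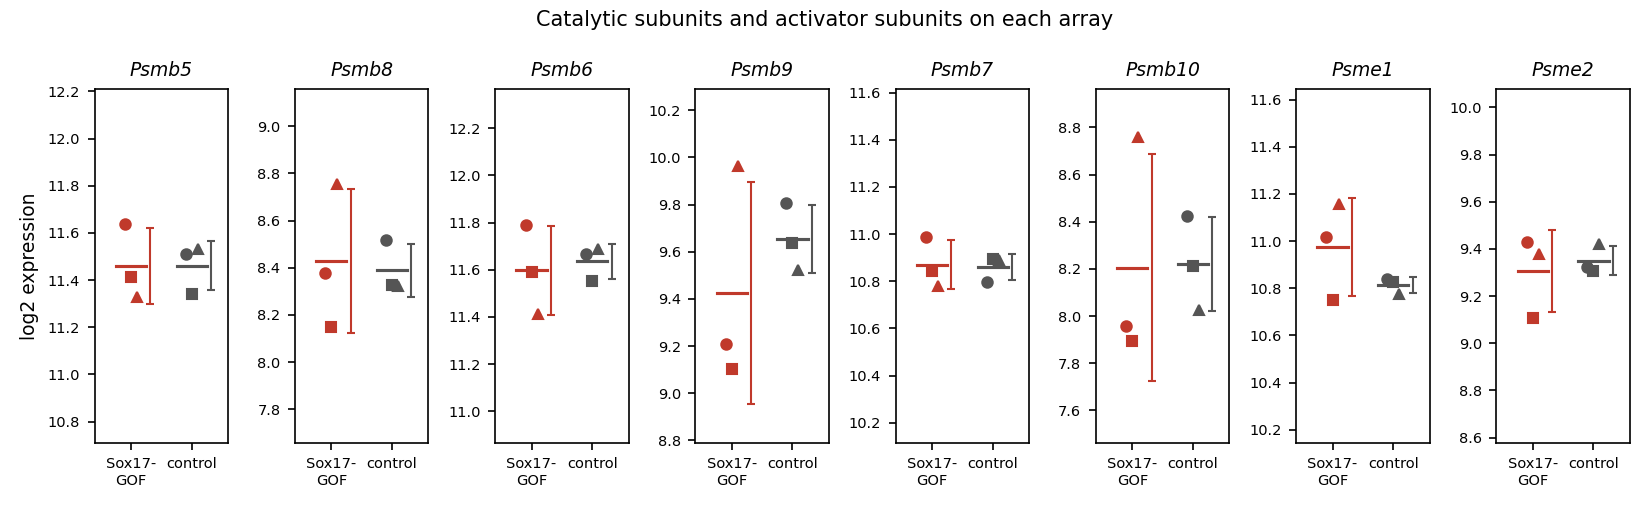
Log2 expression of the catalytic subunits beside their immunoproteasome replacements and of Psme1 and Psme2, on each Sox17-GOF (left, red) and control (right, grey) array, with the mean (line) and SD (bar), n = 3 each. Circles, squares and triangles are replicates 1, 2 and 3, and each panel spans the same number of log2 units. The red triangle is the lowest point for Psmb5, Psmb6 and Psmb7 and the highest for Psmb8, Psmb9 and Psmb10.

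Genes of the interferon response and of antigen presentation likewise had their lowest mean in Sox17-GOF replicate 2 and their highest in Sox17-GOF replicate 3. Of 12 measured, 0 passed the adjusted threshold, and their mean deviation was -0.063, -0.37 and 0.44 in the Sox17-GOF samples and -0.077, -0.027 and 0.096 in the control samples. That of the 3 immunoproteasome subunits was -0.21, -0.34 and 0.44 in the Sox17-GOF samples and 0.20, 0.0047 and -0.098 in the control samples. Sox17-GOF replicate 3 was the highest array for 6 of the 12 genes, beside 17.97% of all genes. Irf9, a factor of the interferon-activated complex, was among the 6. It was at 6.01, 6.09 and 7.21 in Sox17-GOF islets against 6.26, 6.23 and 6.57 in control islets. Ifit3, an interferon-induced antiviral gene, was at 7.91, 6.28 and 9.95 in Sox17-GOF islets and at 6.79, 7.29 and 8.51 in control islets. The largest SDs of the 12 genes in Sox17-GOF islets were those of Ifit3 (1.84) and Ifit1 (1.41), beside a median of 0.19. The mean of the list therefore rests largely on Ifit1 and Ifit3. Genes not among the 6 peaked on other arrays. Irf1, Tap2 and Erap1 were highest in control replicate 1, Cd74 in control replicate 2 and Ciita in Sox17-GOF replicate 1. Tapbp was highest in control replicate 3 and had its lowest value, 7.70, in Sox17-GOF replicate 3. Marker lists of other cell types also deviated on this array, and their part in these values was not tested. The mean deviation of Sox17-GOF replicate 3 was 0.42 over 7 acinar, 0.64 over 4 duct, 0.51 over 6 stromal and 0.084 over 8 leukocyte markers. The duct markers went apart on this array. Krt19 was highest there, at 6.74, 7.07 and 9.13 in Sox17-GOF islets against 6.53, 6.30 and 6.16 in control islets. Krt7 was lowest there, at 10.26, 10.36 and 10.08 in Sox17-GOF islets against 10.54, 10.58 and 10.62 in control islets. The summed signal of the acinar markers, as log2, ranged over 15.16 to 16.20 in Sox17-GOF and 15.74 to 16.05 in control islets, that of the duct markers over 10.56 to 10.87 in Sox17-GOF and 10.78 to 10.83 in control islets. That of the stromal markers ranged over 9.35 to 10.32 in Sox17-GOF and 9.03 to 9.97 in control islets, and that of the leukocyte markers over 9.63 to 9.98 in Sox17-GOF and 9.48 to 10.45 in control islets. Of these, 1 leukocyte marker (Cd79a, of B cells) fell in Sox17-GOF islets, beside 2.44% of all genes, and 1 duct marker (Cftr) lay near the background. The Cd79a call was lost on leaving out Sox17-GOF replicate 2 (adjusted p just over the threshold) or any 1 control sample (adjusted p of 0.055 to 0.066), and by the methods' per-gene test (0.10). Both marker lists whose summed signal did not overlap between the groups had lower sums in Sox17-GOF islets, but their members did not move alike. In the beta cell list, Ins2 and Mafa each differed by -0.011, and Slc2a2 and Ucn3 by -1.01 and -1.03. The summed signal of 6 beta cell markers ranged over 14.39 to 14.46 in Sox17-GOF and 14.60 to 14.62 in control islets, and that of 6 endothelial markers over 10.888 to 10.997 in Sox17-GOF and 11.099 to 11.168 in control islets. Of the endothelial markers, 3 had positive and 3 negative fold changes. Pecam1 differed by 0.37 (adjusted p = 0.11), with all Sox17-GOF samples above all control samples, and Emcn by -0.50 (adjusted p = 0.062). The mean deviation of this list overlapped between the groups, at -0.12, -0.016 and 0.022 in Sox17-GOF and 0.095, -0.045 and 0.063 in control islets. Of the 6, 1 fell, Kdr, a receptor for endothelial growth factor, by 0.68 on the log2 scale (adjusted p = 0.016), beside 2.44% of all genes. This call was lost without control replicate 1 (adjusted p = 0.060) or 3 (0.055) or Sox17-GOF replicate 2 (0.058), and by the methods' per-gene test (0.13).

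**Figure D4:**
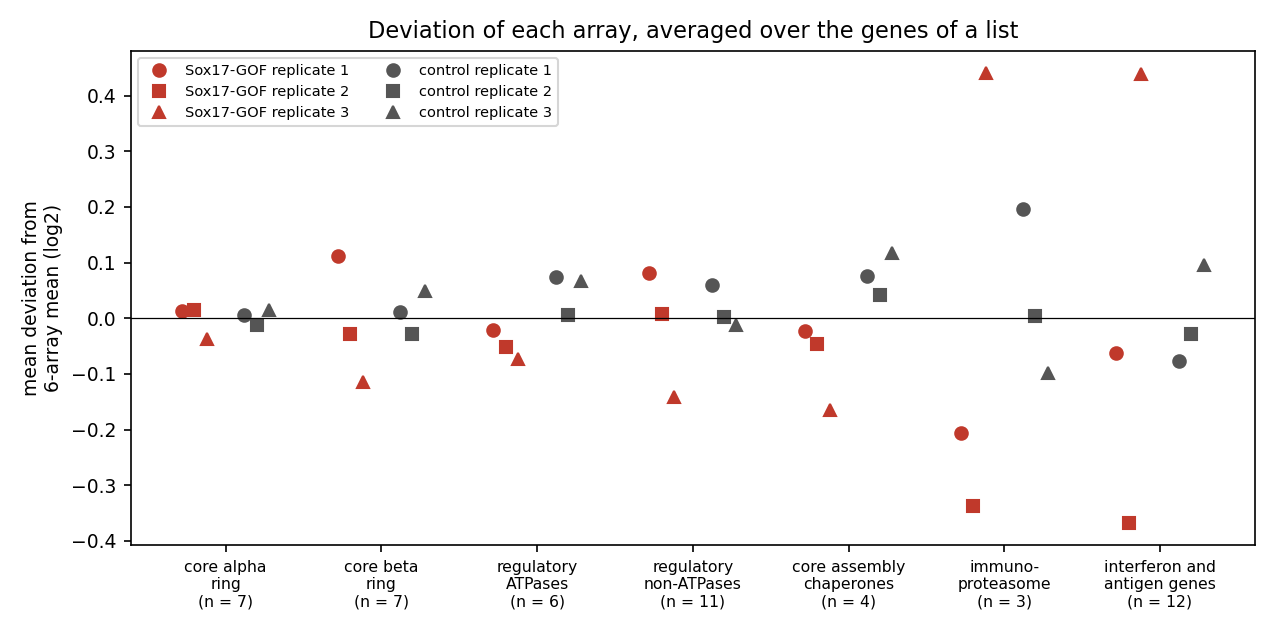
Mean deviation of each array from the 6-array mean (log2), averaged over the genes of a list, for the Sox17-GOF (red) and control (grey) samples. Sox17-GOF replicate 3 (red triangle) is lowest in the lists of constitutive subunits and core chaperones, at -0.037 to -0.16, and highest for the immunoproteasome and the interferon genes, at 0.44.

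Activators and the inhibitor of the core gave no common direction. Psme1, a subunit of the interferon-inducible ring that opens the gate, was at 11.02, 10.75 and 11.16 in Sox17-GOF islets and at 10.84, 10.83 and 10.78 in control islets, a difference of 0.16 ± 0.11 (SE, adjusted p = 0.50). This difference was 0.070 without Sox17-GOF replicate 3 (adjusted p = 0.80) and 0.27 without Sox17-GOF replicate 2 (adjusted p = 0.19). Its partner Psme2 was at 9.43, 9.11 and 9.38 in Sox17-GOF islets and at 9.32, 9.31 and 9.42 in control islets, a difference of -0.046 (adjusted p = 0.86). For both genes Sox17-GOF replicate 2 was the lowest of the 6 arrays. Psme3, the nuclear activator, was at 9.002, 9.006 and 8.866 in Sox17-GOF islets and at 9.152, 9.090 and 9.099 in control islets, and here the groups did not overlap (-0.16 ± 0.076, SE, adjusted p = 0.33). Psme4, a large activator, was at 10.16, 10.33 and 9.79 in Sox17-GOF islets and at 9.96, 9.90 and 9.94 in control islets. Its first and second Sox17-GOF samples were above the control samples and the third below them, and the difference was 0.16 over all arrays (adjusted p = 0.60) and 0.31 without Sox17-GOF replicate 3 (adjusted p = 0.12). Psmf1, an inhibitor of the isolated core, differed by 0.061 (adjusted p = 0.82).

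Assembly chaperones of the core had the lowest median of the role groups, -0.15, with 3 of 4 below 0 and none called. Psmg2, which forms a pair with Psmg1 to guide the alpha ring, had the lowest fold change of the 50 genes. It was at 8.72, 8.96 and 8.59 in Sox17-GOF islets and at 9.09, 9.31 and 8.93 in control islets. The highest Sox17-GOF sample was just above the lowest control sample, and the difference was -0.35 ± 0.13 (SE, 95% interval -0.66 to -0.050, adjusted p = 0.20). Psmg1 was at 9.76, 9.58 and 9.68 in Sox17-GOF islets and at 9.86, 9.77 and 9.96 in control islets, with groups that did not overlap (-0.18 ± 0.087, SE, adjusted p = 0.31). Psmg3 differed by -0.12 (adjusted p = 0.56) and Psmg4, its partner, by 0.039 (adjusted p = 0.89). Among the chaperones of the regulatory particle, Psmd5 was at 7.88, 7.74 and 7.87 in Sox17-GOF islets and at 7.94, 8.08 and 7.93 in control islets, without overlap (-0.15 ± 0.083, SE, adjusted p = 0.37). Psmd9 differed by 0.12 (adjusted p = 0.53) and Psmd10 by 0.067 (adjusted p = 0.70), both with overlapping groups.

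Psma8, a testis-specific core subunit, and Psmb11, the subunit of the thymic cortex, differed by 0.075 and 0.076 (adjusted p = 0.69 and 0.80). Psma8 was at 4.61, 4.49 and 4.65 in Sox17-GOF islets and at 4.48, 4.46 and 4.59 in control islets, with a mean under 4.63, the level below which 20% of all signals fall and which is near background. Psmc3ip, a factor of meiotic recombination, and Psme3ip1, which binds Psme3, matched by symbol and are not subunits. Psmc3ip had the highest fold change of the 50 genes, 0.23 ± 0.12 (SE, adjusted p = 0.35), at 7.48, 7.23 and 7.12 in Sox17-GOF islets against 7.18, 6.92 and 7.05 in control islets. Psme3ip1 differed by -0.026 (adjusted p = 0.94).

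In all, 57 probe sets carried a matching symbol, since 5 genes had 6 further single-symbol probe sets and 1 probe set was shared by Psme2 and Psme2b. None of the further probe sets passed the adjusted threshold. Those of Psma3 disagreed in direction, with 0.19 (adjusted p = 0.25) and -0.14 (adjusted p = 0.58) beside 0.075 for the brightest. The second probe set of Psmd2 differed by -0.091 beside -0.15, and that of Psmc1 by -0.081 beside -0.046. Whether a further probe set reads the gene or a near-identical copy was not settled here, and these genes are uncertain to that extent.

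Proteins that work with the proteasome but carry other symbols also gave no call. The median size of their log2 fold change was 0.25 over 9 measured partners, beside 0.076 over the proteasome genes and 0.11 over all genes, with no test of that contrast. Of the 9, 0 passed the adjusted threshold, while 3 were higher and 3 lower at an unadjusted p under 0.05 by limma, beside 19.7% of all genes, and 7 of 9 had groups that did not overlap, beside 25.5% of all genes. Sem1, a small regulatory particle subunit, was at 12.16, 12.27 and 12.15 in Sox17-GOF islets and at 11.96, 11.89 and 11.88 in control islets, a difference of 0.28 ± 0.075 (SE, adjusted p = 0.087). Zfand5, a ubiquitin-binding activator, differed by 0.32 (adjusted p = 0.083) and Akirin2, which brings proteasomes into the nucleus, by 0.22 (adjusted p = 0.13). Txnl1, a thioredoxin bound to the regulatory particle, differed by -0.36 (adjusted p = 0.069), Ube3c, a ubiquitin ligase that acts at the proteasome, by -0.37 (adjusted p = 0.078), and Ecpas, an adaptor of the holoenzyme, by -0.25 (adjusted p = 0.12). Pomp, the maturation factor of the core, differed by -0.048 (adjusted p = 0.83).

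Of 8 measured genes that control proteasome transcription, 0 passed the adjusted threshold. By limma, 2 were higher and 2 lower at an unadjusted p under 0.05, beside 19.7% of all genes. The groups did not overlap for 3 of the 8, beside 25.5% of all genes. Maff had the largest change, 0.40 (adjusted p = 0.25), with overlapping groups. Nfe2l1, the factor that raises subunit transcription when proteasome activity falls, was at 10.02, 9.80 and 9.97 in Sox17-GOF islets and at 10.26, 10.25 and 10.24 in control islets. All Sox17-GOF samples were below the control samples, with a difference of -0.32 ± 0.082 (SE, adjusted p = 0.077). Ngly1, the glycanase that activates Nfe2l1, differed by 0.31 (adjusted p = 0.20), Keap1, the repressor of Nfe2l2, by -0.20 (adjusted p = 0.23), and Nfe2l2 itself by -0.0023 (adjusted p = 1.00). Of 9 measured genes of ubiquitin activation and substrate shuttling, 1 fell and 0 rose, beside 2.44% of all genes that fell. This was Uba6, an activating enzyme for ubiquitin and the ubiquitin-like FAT10, at 8.41, 8.55 and 8.19 in Sox17-GOF islets and at 8.95, 8.89 and 8.82 in control islets (-0.51 ± 0.11, SE, adjusted p = 0.040). The call of Uba6 was lost without Sox17-GOF replicate 1 (adjusted p = 0.080) or 3 (0.062), and without control replicate 1 (0.14), 2 (0.14) or 3 (0.090), while the difference stayed between -0.41 and -0.59. The shuttle Rad23b differed by -0.24 (adjusted p = 0.23) and Vcp, the segregase that extracts substrates from the endoplasmic reticulum, by -0.11 (adjusted p = 0.68).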

How the data were processed

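The authors deposited log2 signals of 6 arrays after RMA (background correction, quantile normalization of probes, summary by median polish), made in GeneSpring by the methods and in Affymetrix Expression Console by the submitters' processing notes, which was not settled. RMA gives the probes of all arrays the same distribution before the summary, which removes a shift shared by all probes. The summarized values still differed between arrays. Their medians were 6.31, 6.36 and 6.41 in the Sox17-GOF samples and 6.35, 6.38 and 6.35 in the control samples. The table held 34760 probe sets, and the 22961 with a gene symbol in the platform annotation were tested. All arrays were kept as deposited. Sox17-GOF and control samples were compared by lmFit and eBayes of limma 3.58.1 (R 4.3.3), with Benjamini-Hochberg adjustment over the 22961 probe sets at 0.05. The methods call the samples independent biological triplicates. The number of arrays limits the precision. Named were, by rule, the highest and lowest fold change in each role group, the 6 members of smallest p, the catalytic and immunoproteasome subunits with Psme1 and Psme2, called genes of the other lists, and Sox17. Other genes were named after their values were seen. The members and lists were chosen with earlier results of these data known. The limma fit was also run on simulated data of 3 against 3 arrays over 22961 probe sets. It recovered 0 of 50 probe sets changed by 0.25, 24 of 50 changed by 0.5 and 50 of 50 changed by 1 on the log2 scale. Far fewer probe sets were changed in the simulation than the 1133 that passed in the data. Adjustment was therefore stricter in the simulation, and its counts may be too low for the real comparison. Alternatives changed the variance model (trend, weights per array, or the replicate number as a block), the scaling (median centring or quantile normalization), the probe sets (with those lacking a symbol, without dim ones, or averaged per gene), the test (that of the methods), or left out 1 array.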

Additional observations from a re-analysis of the deposited data

How the results depend on the processing

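Under all 15 alternatives tried, 0 proteasome genes passed the adjusted threshold, with 0 to 6 at an unadjusted p under 0.05 and a lowest adjusted p of 0.054 (Psmb9 without Sox17-GOF replicate 3). Sox17 was 0.59 to 0.71 higher under all of them. It missed the adjusted threshold only by the methods' t-test with the adjustment added here (0.67, adjusted p = 0.091). Over all genes tested, 1133 probe sets passed, against 558 when probe sets without a symbol were included and 720 with the replicate block. By the methods' t-test with the added adjustment, 71 passed. With 1 array left out, 385 to 1020 passed (472 without control replicate 1, 385 without 2, 521 without 3, and 651 without Sox17-GOF replicate 2). The gap of 0.074 between core and regulatory medians was 0.033 under quantile normalization and 0.035 to 0.12 with 1 array left out. The core median itself lay between -0.040 and 0.027 with 1 array left out. Uba6 kept its call under 6 and lost it under 9 of 15 alternatives, with an adjusted p of 0.037 to 0.17. Deviations of same-numbered samples from their group means correlated at 0.054, -0.018 and -0.041, and those of differently numbered samples at -0.048 to 0.059. With 3 arrays per group this cannot settle whether the numbers pair the samples. With the block, the lowest limma adjusted p among proteasome genes was 0.081.

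Of 389 values for 26 named genes, 359 kept their sign and 30 reversed it, and the cause was not tested. Many of the 389 could not reverse. The trend, the replicate block, the methods' test and the choice of probe sets adjusted over leave a gene's fold change as it is. Averaging per gene does so for genes with a single probe set. The count of kept signs is therefore no measure of stability. With array weights the log2 fold change was 0.0075 for Psmb5, -0.030 for Psmb8 and 0.020 for Psmc4. After median centring it was 0.0014 for Psmc4. Under quantile normalization it was 0.039 for Psmb10, 0.022 for Psmb5, 0.0026 for Psmb6, 0.045 for Psmc4 and 0.022 for Psme3ip1. With 1 array left out the range was -0.29 to 0.14 for Psmb10, -0.023 to 0.18 for Psmb11, -0.0075 to 0.11 for Psmb3, -0.091 to 0.064 for Psmb5 and -0.14 to 0.054 for Psmb6. It was -0.047 to 0.056 for Psmb7, -0.13 to 0.18 for Psmb8, -0.040 to 0.062 for Psmc4 and -0.0022 to 0.17 for Psmd4. It was -0.11 to 0.053 for Psme2, -0.13 to 0.087 for Psme3ip1 and -0.057 to 0.097 for Psmg4.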
